A study of Mus musculus with 2 samples.

Results

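Krt6a, Krt6b, Krt16, Krt17 and Krt79 are 5 keratin genes of the 56694 genes in a single-cell data set of newborn mouse epidermis, and all 5 rows were found by symbol. Their unique molecular identifiers (UMIs, each counting 1 captured RNA molecule) were followed across keratinocytes of the upper follicle, the sebaceous gland, the outer root sheath and the interfollicular epidermis (IFE), which were set apart by other marker genes. The study asked how the transcription factor Gli2 acts in hair follicle development. 1 library came from K14Cre;Gli2 fl/fl mice (Gli2EKO), in which the keratin 14 promoter drives Cre in keratinocytes from embryonic life on, and 1 from floxed littermates without Cre (control, labelled WT). Both were prepared from enzymatically dissociated back skin epidermis on the C57BL/6N background at postnatal day 2, and how many mice went into each is not stated in the sources used here. With 1 library per genotype there was no replicate and no test, and genotype, animal and library cannot be told apart in any value below. All intervals cover counting error only.

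Keratins assemble as pairs of a type I and a type II chain into the intermediate filaments of epithelial cells. Krt16 and Krt17 are type I chains, while Krt6a, Krt6b and Krt79 are type II chains. Krt6 proteins, Krt16 and Krt17 are known from hair follicle layers, nail and palm or sole skin and from epidermis activated by injury or inflammation, where basal and suprabasal IFE cells switch them on. Krt79 is known from the cells that form the hair canal, the infundibulum and the sebaceous duct.

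The 5 genes lie in both keratin clusters of the mouse genome, all on the minus strand (GRCm39, GENCODE annotation). Krt6b (chr15:101584458-101588722, 9 exons) and Krt6a (chr15:101598345-101602742, 9 exons) are neighbours, and Krt79 (chr15:101837767-101848759, 9 exons) lies at the far side of the same cluster. Krt16 (chr11:100136917-100139795, 8 exons) and Krt17 (chr11:100147040-100151974, 8 exons) are neighbours in the type I cluster. The transcripts of Krt6a and Krt6b were identical at 90.7% of aligned positions, but at 68.9% over the last 500 bases, the end that the 3′ assay reads. Of 412 stretches of 89 bases in that end, none occurred in a transcript of another gene for Krt6a, Krt6b, Krt17 or Krt79. For Krt16, 19 stretches (4.61%) also occurred in the pseudogene Gm11597, and UMIs read there could have been lost. Reads further inside the Krt6a and Krt6b transcripts could still be shared, so a small exchange between these paralogs remains uncertain.

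The 250 bases before the annotated start are shown for Krt6b and Krt16, which are classed with epidermal activation and had most of their UMIs in the same class of cells below. Capitals mark a TATA box (TATAAA or TATATAA) or an AP-1 motif (TGAGTCA or TGACTCA), searched on both strands.
Krt6b, chr15:101588723-101588972, minus strand: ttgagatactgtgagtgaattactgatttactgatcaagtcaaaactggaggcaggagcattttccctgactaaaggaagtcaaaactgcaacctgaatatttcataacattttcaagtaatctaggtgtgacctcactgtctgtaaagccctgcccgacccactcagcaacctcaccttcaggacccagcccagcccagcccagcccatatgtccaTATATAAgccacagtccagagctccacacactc
Krt16, chr11:100139796-100140045, minus strand: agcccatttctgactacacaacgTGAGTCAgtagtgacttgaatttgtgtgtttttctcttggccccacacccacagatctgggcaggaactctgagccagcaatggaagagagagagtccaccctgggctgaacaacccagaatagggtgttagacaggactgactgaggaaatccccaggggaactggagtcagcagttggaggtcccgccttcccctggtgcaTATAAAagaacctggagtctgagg
The stretches of the neighbours Krt16 and Krt17 were identical at 47.8% of aligned positions. Krt6b holds a TATA box whose first base lies 33 bases before the start, and Krt16 holds one 24 bases before it. A TATA box of these letters occurred in 13.3% of 21757 promoters of the same length, and was not found in those of Krt17 or Krt79. The AP-1 letters were in the Krt16 stretch, not in those of Krt6b, Krt17 or Krt79, and in 4.03% of all promoters. The letters GACCACCCA, a GLI motif, were in none of these 4 and in 0.188% of all promoters.

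The control library held 6326 barcodes with 71021773 UMIs and the Gli2EKO library 4296 with 48866478, and no barcode was shared. After filters on genes, mitochondrial UMIs and doublets, 4456 and 3093 cells remained, of which 3321 and 2307 were keratinocytes. Gli2 itself had 83.0 CPM (UMIs of a gene on a per-million scale of all keratinocyte UMIs of the library, or of those of the class named) in control and 84.6 in Gli2EKO. Because the assay reads the 3′ end and the deleted exons are not stated in the sources used here, these values do not check the label. The 5 keratins were kept out of the genes used for clustering, which gave 14 clusters, and classes were named from lists of other markers. Upper follicle-like cells (881) had Sostdc1 at 1065 CPM and Lgr6 at 305 CPM, and sebaceous-like cells (70) had Scd1 at 5365 CPM. A cluster of 273 cells with Cst6 at 3276 CPM, Klk10 at 249 CPM and Defb6 at 247 CPM was called upper follicle suprabasal-like, after genes of the infundibulum and sebaceous duct. It could be taken for the companion layer, the follicle layer known for Krt6a and Krt75. Krt75 was 24.1 CPM there against 466 CPM in inner root sheath-like cells. With Krt75 as the single marker of that layer outside the members, no cluster could take its name, and this identity was not tested. The IFE held 918 basal-like and 522 suprabasal-like cells. These IFE suprabasal-like cells also had Defb6 at 337 CPM and Cst6 at 1954 CPM. A Cst6 UMI was found in 64.0% of them, against 37.7% of upper follicle suprabasal-like cells. Cst6 and Defb6 were therefore not particular to either class. Within IFE suprabasal-like cells they lay mainly in the Lor-led part described below, at 5636 and 1030 CPM over both libraries. The other parts of that class had at most 401 CPM of Cst6 and 12.8 CPM of Defb6. The other 3 clusters of keratinocytes outside the named classes stayed unnamed. Of the genes that named the upper follicle suprabasal-like cluster, Cst6 was 3679 CPM in control and 2518 CPM in Gli2EKO, but Defb6 was 12.95 and 689 CPM, so that its cells differed between the libraries in a defining gene.

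The 5 keratins had different homes. Summed over each class, Krt17 was the most abundant of them in follicle keratinocytes and IFE. Krt79 was shared by upper follicle suprabasal-like, sebaceous-like and IFE suprabasal-like cells. Krt6a was highest in upper follicle suprabasal-like cells, and Krt16 was highest in IFE suprabasal-like cells. Over both libraries, the Lor-led part of IFE suprabasal-like cells described below held 20139 of 20615 Krt79 UMIs and 30238 of 34296 Krt17 UMIs. That part also carried genes of the infundibulum and sebaceous duct, and in the other parts Krt16 stood above Krt17. Krt6b was almost absent outside a few Gli2EKO cells. Since UMIs count 3′ ends, CPM values of different genes were compared without a correction for length.

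**Figure D1:**
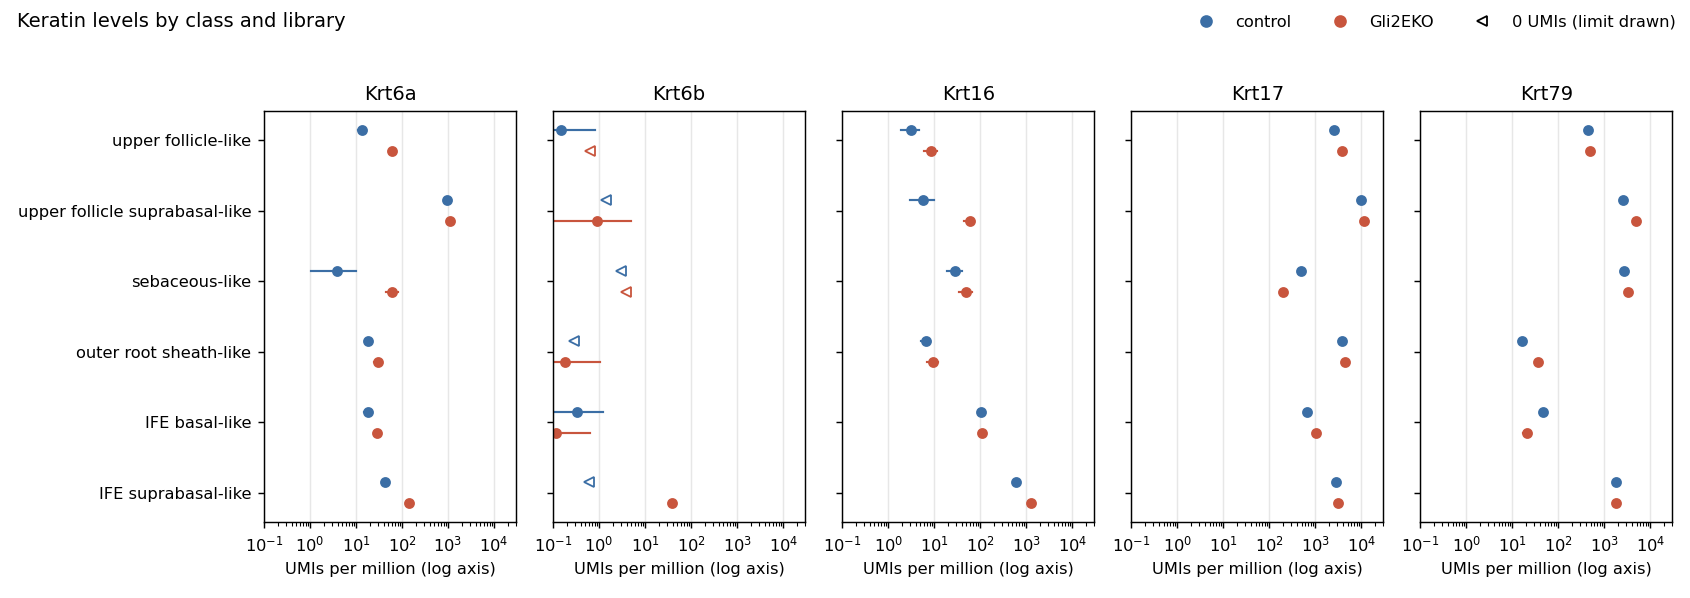
Level of each keratin (CPM, log axis) in 6 classes of keratinocytes, control in blue and Gli2EKO in red, with 95% Poisson intervals as bars where wider than the point. An open triangle stands for 0 UMIs, drawn at the level of 3 counts. Krt17 spans from 198 to 11332 CPM, while Krt6b has more than 2 UMIs only in Gli2EKO IFE suprabasal-like cells.

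Krt17, a type I chain of the outer root sheath and of skin appendages, reached 9992 CPM in control and 11332 CPM in Gli2EKO upper follicle suprabasal-like cells. Outer root sheath-like cells came next with 3715 and 4495 CPM. The following places changed between the libraries: in control, IFE suprabasal-like cells (2768 CPM, 95% interval 2723 to 2815) stood above upper follicle-like cells (2578 CPM, 2540 to 2616), whereas in Gli2EKO upper follicle-like cells (3776 CPM) stood above IFE suprabasal-like cells (3087 CPM). IFE basal-like cells had 647 and 1039 CPM, and sebaceous-like cells 478 and 198 CPM, the lowest of these 6 classes in both libraries. Control matrix-like cells, at 485 CPM, were not told from the control sebaceous-like level, and unnamed clusters went down to 293 CPM in control. After thinning each cell to 2000 UMIs, 98.2% of upper follicle suprabasal-like, 98.1% of outer root sheath-like and 90.5% of upper follicle-like cells of both libraries had a Krt17 UMI. The share was 45.2% in IFE basal-like and 41.4% in IFE suprabasal-like cells. In cells that should lack the gene it was 12.5% (immune) and 11.2% (fibroblast), and the 21.4% of sebaceous-like cells (12.5% to 32.9%) overlapped the immune interval of 7.32% to 19.5%. Median depth before thinning was 9905 UMIs in fibroblasts, 10788 in immune cells and 22906 in sebaceous-like cells. No endothelial cluster was set apart, so immune cells and fibroblasts served as the background.

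Krt79 had 4 places with clear levels. Upper follicle suprabasal-like cells had 2469 CPM in control (95% interval 2402 to 2538) and 4815 CPM in Gli2EKO, and sebaceous-like cells had 2597 CPM (2499 to 2697) and 3301 CPM, so that the order of these classes was within counting error in control and not in Gli2EKO. IFE suprabasal-like cells had 1793 and 1757 CPM, and upper follicle-like cells 432 and 495 CPM. In IFE suprabasal-like cells the Lor-led part held 20139 of 20615 UMIs, and the other parts had 112 CPM or below in either library. All other named classes were lower. IFE basal-like cells had 46.0 and 20.2 CPM, and outer root sheath-like cells 15.8 and 35.9 CPM. In sebaceous-like cells the gene was nearly universal: 67 of 70 thinned cells (95.7%) had a UMI, against 39.2% of upper follicle-like, 36.3% of upper follicle suprabasal-like and 21.3% of IFE suprabasal-like cells. In IFE basal-like (3.05%, interval 2.04% to 4.38%) and outer root sheath-like cells (2.81%, 1.98% to 3.87%) the share lay below that of immune cells (5.47%, 2.23% to 10.9%), and its interval overlapped that of fibroblasts (1.79%, 1.19% to 2.57%). It was not told from background in these classes. The share in inner root sheath-like cells (6.20%, 4.19% to 8.78%) lay above the fibroblast interval but within the immune one. Their level was 95.4 and 424 CPM, against 11.5 and 10.9 CPM in 1574 fibroblasts. Immune cells had 17.2 and 312 CPM, the latter from 142 UMIs in 37 cells.

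Krt6a was concentrated. Upper follicle suprabasal-like cells had 968 CPM in control and 1085 CPM in Gli2EKO, and no other class passed 142 CPM. IFE suprabasal-like cells followed with 42.9 and 142 CPM. In control, outer root sheath-like (18.5 CPM), IFE basal-like (18.3 CPM) and upper follicle-like cells (13.6 CPM) could not be ordered, as their intervals overlapped. After thinning, 37.7% of upper follicle suprabasal-like and 5.36% of IFE suprabasal-like cells had a UMI. The shares of outer root sheath-like (1.48%), IFE basal-like (0.980%) and upper follicle-like cells (0.681%) had intervals that overlapped that of fibroblasts (0.574%), and 0 of 128 immune cells had one, which allows up to 2.34%. Upper follicle suprabasal-like cells were 5.36% of control and 4.12% of Gli2EKO keratinocytes, and held 75.4% and 41.2% of Krt6a UMIs.

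Krt16, the usual type I partner of Krt6 chains in activated epidermis, followed another map. IFE suprabasal-like cells had 609 CPM in control and 1280 CPM in Gli2EKO, and IFE basal-like cells 102 and 109 CPM. Sebaceous-like cells had 28.2 and 48.9 CPM, from 29 and 39 UMIs. Upper follicle-like cells had 3.07 and 8.45 CPM and upper follicle suprabasal-like cells 5.76 and 58.8 CPM, the latter from 12 and 65 UMIs. Thinned, 40.4% of IFE suprabasal-like and 7.84% of IFE basal-like cells had a UMI, against 0.447% of fibroblasts. The 1.02% of upper follicle-like and 1.83% of upper follicle suprabasal-like cells were within the counting interval of immune cells (0.781%, 0.0198% to 4.28%). IFE suprabasal-like cells held 84.2% of all Krt16 UMIs, and upper follicle suprabasal-like cells, which held 57.6% of Krt6a UMIs, held 0.564%.

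Krt6b had 4 UMIs in control keratinocytes, in 4 cells. In Gli2EKO it had 249 UMIs in 18 cells, of which 246 were in 15 IFE suprabasal-like cells. The level in that class was 37.4 CPM in Gli2EKO against 0 UMIs in control, which is 63.2-fold higher when 3 counts are put in place of the 0. This fold is not a lower bound, as it leaves out counting error in Gli2EKO. In cells, this was 15 of 307 (4.89%, Clopper-Pearson interval 2.76% to 7.93%) against 0 of 215 (Clopper-Pearson upper limit 1.70%). The 2 cells with most held 68 and 65 UMIs, 53.4% of the Gli2EKO total. Krt6a in the same Gli2EKO class was placed differently, with 668 of 933 UMIs in a subcluster led by Lor that held 51 of the 246 Krt6b UMIs.

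**Figure D2:**
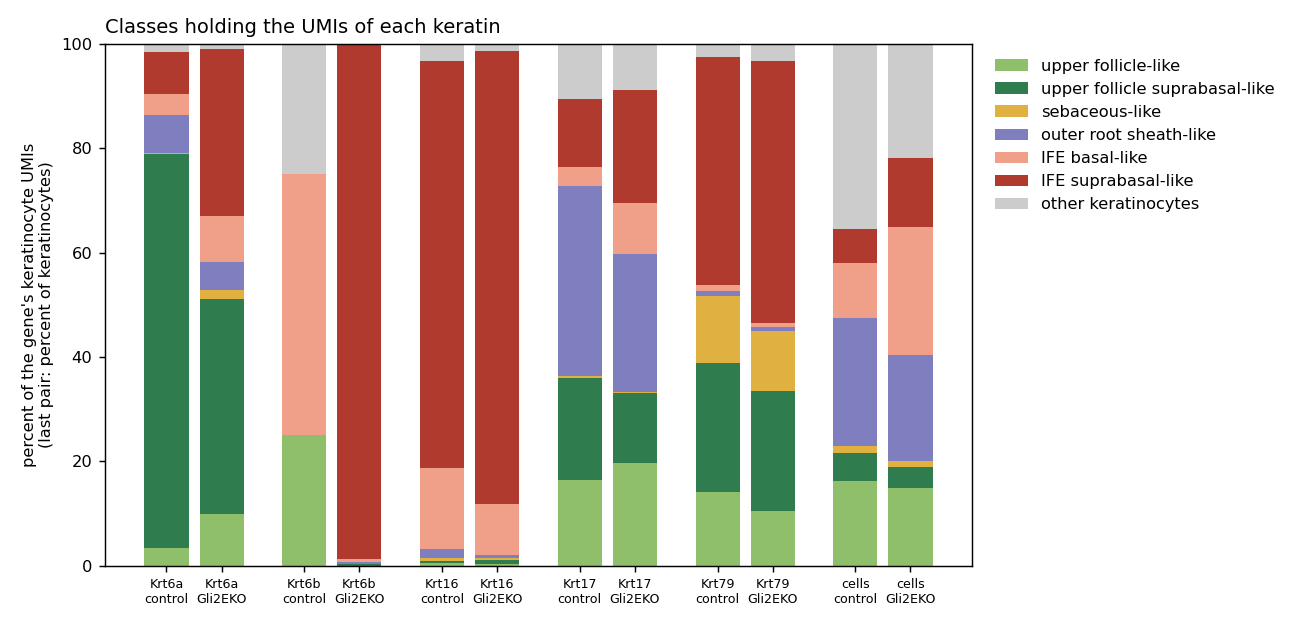
Share of each keratin's keratinocyte UMIs (percent, stacked to 100) held by each class in either library, with the share of keratinocytes in each class as the last pair of bars. Krt16 sits in IFE suprabasal-like cells, upper follicle suprabasal-like cells hold 75.4% of control and 41.2% of Gli2EKO Krt6a UMIs, and the control bar of Krt6b stands for 4 UMIs.

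Splitting the suprabasal clusters separated the keratins further. The upper follicle suprabasal-like cluster fell into a part of 138 cells led by Cmah and Rap1gap2 and one of 135 cells led by Pinlyp and Glul. Set against the other subclusters only, the outer root sheath list scored highest for the Cmah-led part. Krt17 was high in both parts (8836 and 11679 CPM over both libraries). Krt6a was 351 CPM in the former and 1505 CPM in the latter, Krt79 was 134 and 5657 CPM, and Cst6 was 64.1 and 5700 CPM. In the Cmah-led part, Krt79 was 10.8 CPM in control and 388 CPM in Gli2EKO, the latter from 174 UMIs in 6 cells. In the Pinlyp-led part it was 4424 and 7837 CPM, with a UMI in 72.4% and 83.3% of cells. Since Pinlyp is also among the genes most like Krt6a over clusters, and clustering used genes that vary with these keratins, the split is a description.

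The IFE suprabasal-like cluster fell into 4 parts. A part of 165 cells led by Lor and Flg, granular layer genes, held Krt79 at 4463 CPM in control and 6427 CPM in Gli2EKO and Krt17 at 6203 and 10213 CPM. Keratins of the inner root sheath (Krt73 and Krt25) were also among its leading genes. It had Cst6 at 4950 and 6415 CPM, and its Lor level was 12924 CPM in control against 649 CPM in Gli2EKO, so that its cells differed in makeup between the libraries. Krt6a there was 39.3 and 381 CPM, and Krt16 220 and 865 CPM. A part of 144 cells led by Ifi202b and Thbs1, with the stress-responsive genes Fosl1 and Atf3 among its leading genes, had the highest Krt16 of these parts, 1312 and 2347 CPM, with Krt79 at 112 and 103.2 CPM. For this part and the one led by Col17a1, the IFE basal list scored highest when set against the other subclusters only. Their level of the suprabasal gene Krt10 was 22538 and 12427 CPM over both libraries, so the score does not make them basal cells. The part led by Col17a1 (136 cells) had Krt16 at 476 and 814 CPM, and the part led by Serpinb3a (77 cells), where Krt10 reached 43558 CPM, 566 and 743 CPM. Krt79 was 41.99 CPM or below in these last parts. Krt17 was lower than Krt16 in both libraries in the Ifi202b-led (977 and 541 CPM), Col17a1-led (405 and 628 CPM) and Serpinb3a-led parts (116 and 243 CPM). The Lor-led part held 45.9% of all Krt79 UMIs and 15.1% of Krt17 UMIs, but 14.3% of Krt16 UMIs. The part with Atf3 held 46.8% of Krt16 UMIs and 0.801% of Krt79 UMIs.

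**Figure D3:**
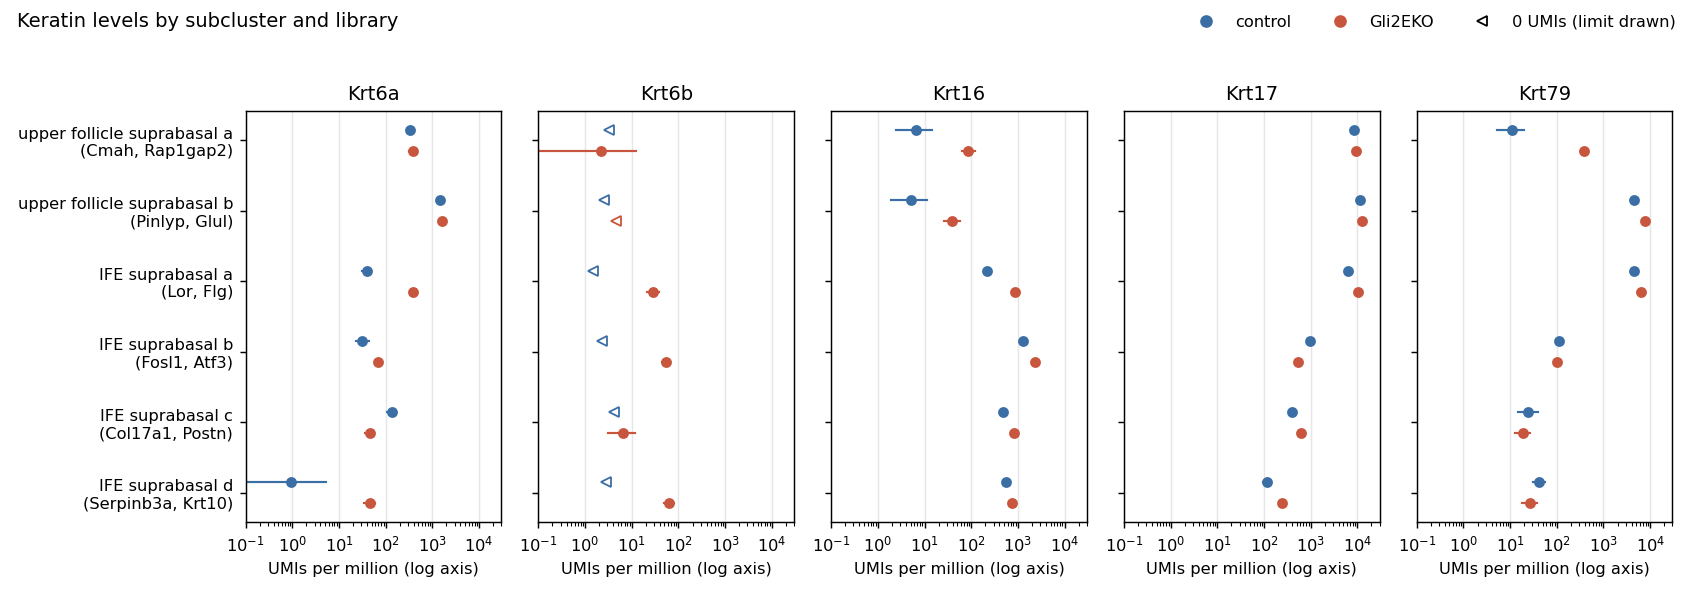
Level of each keratin (CPM, log axis) in the 2 parts of the upper follicle suprabasal-like cluster and the 4 parts of the IFE suprabasal-like cluster, drawn as in the plot of levels by class. Krt79 lies at or above 4424 CPM in the Pinlyp-led and Lor-led parts of both libraries and at or below 388 CPM in the others, whereas Krt16 is highest in the part with Fosl1 and Atf3.

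Within single cells, thinned to 2000 UMIs, Krt17 and Krt79 were found together in 97 of 165 cells of the Lor-led part (58.8%), where 120 cells had Krt17 and 100 had Krt79, and where independent detection would give 44.1%. Krt6a and Krt79 were found together in 53 of 135 cells of the Pinlyp-led part (39.3%, against 38.4% if independent), and all 77 cells with Krt6a there also had Krt17. Krt16 and Krt79 were seldom found together. In IFE suprabasal-like cells 211 had Krt16 and 111 had Krt79, and 19 of 522 had both, 3.64% against 8.60% if independent. Cells of 1 library are not replicates, and these shares are descriptions.

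The members made up very different shares of the keratin pool, counted over 54 keratin genes. They were 51.5% of keratin UMIs in control and 54.2% in Gli2EKO upper follicle suprabasal-like cells, and 33.8% and 36.3% in sebaceous-like cells. In outer root sheath-like cells they were 35.8% and 38.3%, in upper follicle-like cells 22.3% and 28.5%, in IFE suprabasal-like cells 9.73% and 11.1%, and in IFE basal-like cells 2.58% and 3.56%. Type I UMIs were 59.5% of keratin UMIs in Gli2EKO sebaceous-like cells and 72.6% in Gli2EKO outer root sheath-like cells, the ends of the range over named classes. In sebaceous-like cells Krt6a, Krt6b and Krt79 were 70.1% and 83.5% of type II keratin UMIs, nearly all of it Krt79, and Krt17 was 8.69% and 3.35% of type I UMIs.

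Between the libraries, 4 of the 5 keratins were higher in Gli2EKO by at least 1.5-fold over all keratinocytes. At that threshold 14.2% of the 15634 genes with at least 50 UMIs differed in either direction, and the median log2 ratio of all these genes was −0.14. The log2 ratio (Gli2EKO over control) was 1.76 for Krt16 (85.7 and 290 CPM, interval 1.71 to 1.81), 0.61 for Krt79 (451 and 689 CPM) and 0.59 for Krt6a (58.0 and 87.2 CPM). It was 0.26 for Krt17 (2321 and 2787 CPM) and 6.43 for Krt6b (0.0867 and 7.46 CPM), the latter with an interval of 5.05 to 8.31. The makeup of the libraries differed as well: IFE basal-like cells were 10.6% of control and 24.5% of Gli2EKO keratinocytes, and IFE suprabasal-like cells 6.47% and 13.3%. With Gli2EKO clusters weighted by their control shares, the log2 ratio of Krt16 was 0.90, that of Krt6b 5.51, that of Krt79 0.52 and that of Krt17 0.37. The ratio of Krt6a rested on few cells. It was 0.44 without the cell with most UMIs in each library, 0.27 without the Lor-led part and −0.024 as the mean of single-cell CPM.

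Class by class, different members stood apart between the libraries. In IFE suprabasal-like cells, where 9.69% of genes differed by 1.5-fold, 3 of 5 members were past it: Krt16 (log2 ratio 1.07, interval 1.012 to 1.132), Krt6a (1.73) and Krt6b. Over the whole class Krt17 was 0.16 and Krt79 −0.03, but the parts differed. In the Lor-led part (85 of 215 control and 80 of 307 Gli2EKO cells), Krt79 was 0.53 (0.49 to 0.57) and Krt17 0.72. In the Ifi202b-led, Col17a1-led and Serpinb3a-led parts, Krt17 was −0.85, 0.63 and 1.06. There the top 4 to 10 cells of a library held 63.9% to 86.1% of Krt17 UMIs. Krt79 in these parts was −0.11, −0.38 and −0.66, each within counting error. The higher Krt16 was present in each of the 4 parts, at log2 ratios of 0.39 to 1.97. Krt6a was 3.28 in the Lor-led part and −1.56 in the Col17a1-led part, and 0.28 without the Lor-led part, short of 1.5-fold. These Krt6a ratios rested on few cells. In the Lor-led part, the highest Gli2EKO cells held 243 and 139 of 668 UMIs. In the Col17a1-led part, 97 control UMIs lay in 4 of 39 cells and 71 Gli2EKO UMIs in 7 of 97. The parts are therefore not read as opposite for Krt6a, and its place among the 3 of 5 rested on the Lor-led part. In IFE basal-like cells (8.32% of genes), Krt17 was higher in Gli2EKO by 0.68 (0.63 to 0.74) and Krt16 did not differ beyond counting error (0.09, −0.06 to 0.24). Krt79 was lower there, −1.19, at a detection not told from background. It was −0.19 with automatic Scrublet thresholds for doublets, −0.07 with no doublet removal and −0.20 at resolution 0.3. Krt6a was 0.67 there but −0.67 without 1 cell per library, 1 Gli2EKO cell holding 177 of 255 UMIs. By count 3 of 4 members were past the threshold, but those of Krt79 and Krt6a were lost under these alternatives.

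In upper follicle-like cells (10.9% of genes), 2 of 4 members were past 1.5-fold. Krt17 was 0.55 and Krt79 0.20, both short of it. Krt6a was 2.13, but 215 of its 288 Gli2EKO UMIs came from 1 cell, and the ratio was 0.78 without the top cell of each library, 0.16 at resolution 0.8 and −1.06 at resolution 0.3. Krt16, at 21 and 41 UMIs and a detection not told from background, was 1.46. In upper follicle suprabasal-like cells (12.5% of genes), Krt79 was 0.96 (0.91 to 1.02) and Krt16 3.35 (2.45 to 4.38), and Krt17 (0.18) and Krt6a (0.16) were within 1.5-fold. Krt16 had 12 and 65 UMIs there, 31 of the 65 in 1 cell, at a detection not told from background. Krt6a was −0.32 there without the top cells, as 1 Gli2EKO cell held 424 of 1200 UMIs. Without integration of the libraries, Krt79 was 0.14.

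In sebaceous-like cells (27.2% of genes past 1.5-fold, from 45 and 25 cells, with a median of −0.16 over all genes), Krt17 was lower in Gli2EKO, 478 against 198 CPM and a log2 ratio of −1.27 (−1.54 to −1.01), and was −1.19 without the top cell of each library. The median cell had 1 Krt17 UMI in both libraries. The top 4 of 45 control cells held 67.0% of Krt17 UMIs and the top 2 of 25 Gli2EKO cells 55.1%. The interval does not take this into account. Krt17 detection overlapped that of immune cells, whose Krt17 level was 76.1 CPM in control and 352 CPM in Gli2EKO, against 96.4 and 46.0 CPM in fibroblasts. Krt79 was 0.35. The ratios of Krt6a and Krt16 are not read: all 48 Gli2EKO UMIs of Krt6a were in 1 cell, and 1 cell per library held 25 of 29 and 35 of 39 Krt16 UMIs. As these genes reached the threshold through single cells, no count of members is set against the background here. In outer root sheath-like cells (7.11% of genes), Krt17 was 0.27 with 38916 and 24531 UMIs, and Krt16 0.50. Krt6a (0.66) and Krt79 (1.18) were past 1.5-fold, making 2 of 4, at a detection not told from background. Krt6a was −0.39 at resolution 0.8 and −0.81 as the mean of single-cell CPM. Krt79 was 0.53 without the top cell of each library, 0.52 with automatic Scrublet thresholds and 0.44 at resolution 0.8, so that neither call held.

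**Figure D4:**
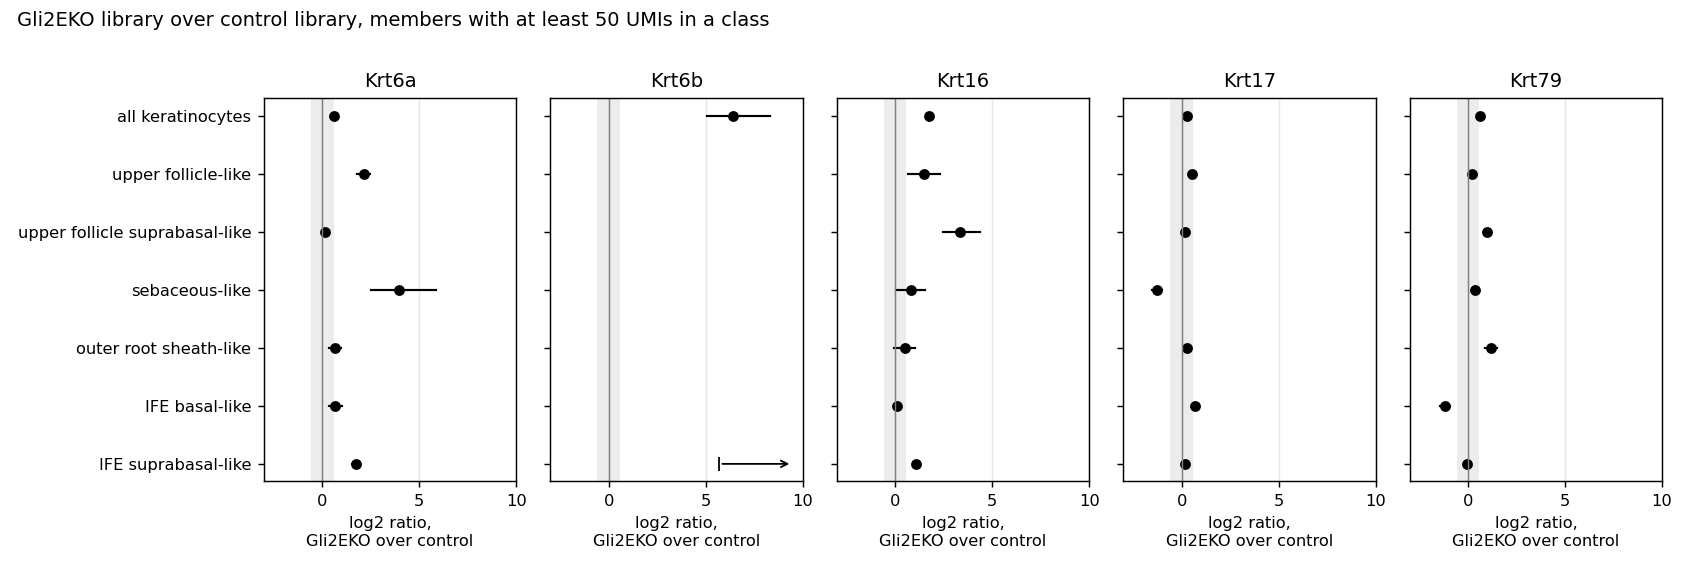
Log2 ratio of Gli2EKO over control for each keratin with at least 50 UMIs in a class, with 95% exact conditional binomial intervals as bars, and the range within 1.5-fold in grey. The arrow for Krt6b starts at the lower bound of a ratio against 0 UMIs. Krt16 lies right of the grey range in IFE suprabasal-like cells and Krt17 left of it in sebaceous-like cells, where few cells held most of its UMIs.

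The keratins differed in how many cells carried them. Of Krt17 UMIs, 331 control and 219 Gli2EKO cells held 50%. For Krt79 it was 39 and 29 cells, and for Krt16 24 and 30 cells. For Krt6a it was 20 cells in control and 8 in Gli2EKO, and the 4 highest Gli2EKO cells, with 424, 243, 215 and 177 UMIs, lay in 4 different classes.

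**Figure D5:**
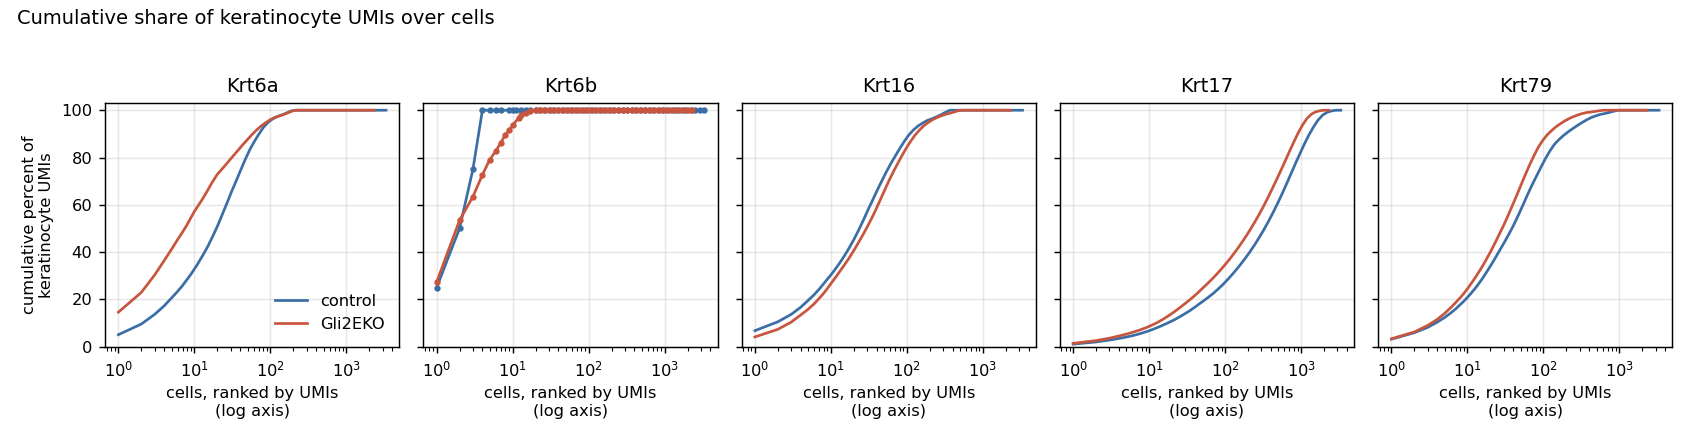
Cumulative percent of each keratin's keratinocyte UMIs against the number of cells ranked by their UMIs (log axis), control in blue and Gli2EKO in red. The Gli2EKO curve of Krt6a starts at 14.6% in 1 cell, and that of Krt17 at 1.39%.

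Other gene lists that bear on these keratins were read at the same 1.5-fold. Over all keratinocytes 666 genes were higher and 1550 lower (14.2% of 15634), in IFE basal-like cells 389 and 513 (8.32% of 10846), and in IFE suprabasal-like cells 280 and 667 (9.69% of 9772), against which the counts below stand. Of genes known to be induced together with Krt6 and Krt16 in activated epidermis, 8 of 12 had enough UMIs over all keratinocytes, and 5 were higher in Gli2EKO and none lower (median log2 ratio 0.76, against −0.14 for all genes): S100a9, Sprr1a, Sprr1b, Il36g and Serpinb3a. Within IFE suprabasal-like cells, 2 of 7 were higher and 2 lower (median 0.26, against −0.06 for all genes), with the cornified envelope gene Sprr1a at 377 and 452 CPM and the protease inhibitor gene Serpinb3a at 51.8 and 83.0 CPM. In IFE basal-like cells all 3 measured members (S100a9, Sprr1a and Il36g) were lower, with a median of −1.26 against −0.02 for all genes. Of immediate early and EGF receptor ligand genes, 1 of 10 (Areg) was past 1.5-fold over all keratinocytes, a share below that of all genes, and 4 of 9 were lower in IFE basal-like cells (Fos, Fosb, Atf3 and Hbegf). Heat shock genes were higher in 4 of 5 over all keratinocytes and in none of 5 in IFE suprabasal-like cells, with a median of 0.45 there. Of 15 other epithelial keratins, Krt1, Krt5, Krt10 and Krt14 were higher and Krt7, Krt8, Krt19, Krt23, Krt75 and Krt77 lower over all keratinocytes. In IFE suprabasal-like cells 1 of 11 was higher (Krt75) and 3 lower (Krt7, Krt23 and Krt77). Of 10 regulators known for these keratins or for the upper follicle, Gli1 and Gli3 were lower over all keratinocytes and none was higher. Matrix-like cells were 12.0% of control and 6.98% of Gli2EKO keratinocytes, and what this makeup adds to the pooled values was not tested. In IFE basal-like cells Gli1 and Gli2 were higher and none lower, of 9 measured. In upper follicle-like cells (10.9% of all genes past 1.5-fold) Gata6, Gli1, Gli3 and Lrig1 were lower and none higher, of 10 measured. In IFE suprabasal-like cells Gli2 was higher and Gata6, Sox9 and Lrig1 lower, of 9 measured.

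Over 28 points, each 1 cluster in 1 library, the pattern most like each keratin differed by member (Pearson r of log2 levels over 12144 genes). For Krt79 these were Cst6 (r = 0.917), Klk7 (0.909) and Atp6v1c2 (0.908). For Krt6a they were Fam89a (0.839), Orm1 (0.826) and Pinlyp (0.807), and for Krt17 Gsn (0.876), Hmg20b (0.842) and Selenop (0.835). For Krt16 they were Ptgs1 (0.941), Cyp3a13 (0.940) and Npl (0.928). For Krt6b no gene is named, since 1 of the 28 points held 246 of its 253 UMIs. Among the members, Krt6a was closest to Krt79 (0.611) and Krt17 (0.583), and further from Krt16 (0.209). Krt16 and Krt17 gave −0.18. The points of 1 library share its depth and free RNA, so these values carry no p.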

How the data were processed

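The authors deposited 1 matrix of UMI counts per library, made with Cell Ranger 9.0.1 from reads aligned to GRCm39. From these counts, cells with over 1000 and under 8000 genes and under 15% mitochondrial UMIs were kept, the limits the study gives. Scrublet (scanpy 1.11.5, expected doublet rate 0.06) set thresholds that marked 260 control and 5 Gli2EKO cells. Therefore 8% of each library was removed instead, taken from the top of its doublet scores (388 and 269 cells). Median depth was 11828 and 11936 UMIs in the cells kept. Cells were clustered in Seurat 5.3.0 (R 4.3.3) with 2000 variable genes without the members, 20 components, integration of the libraries and resolution 0.5. A subclustering used 1000 genes, 10 components and resolution 0.3.

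A cluster took the name of the marker list with the highest mean log2(CPM + 10) above the mean of all clusters, if that score was at least 1, at least 3 markers were found in 10% of its cells and its leading genes did not go against the name. Spinous and granular clusters were joined as IFE suprabasal-like. The 6 subclusters were scored against their own mean, not that of all clusters. The single sure companion layer marker outside the members was Krt75, so no cluster could take that name. Of 105 markers 1 was not found. Immune cells and fibroblasts gave the background of detection, as no endothelial cluster was set apart.

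UMIs were summed per class and library (CPM, with exact Poisson intervals). Ratios have exact conditional binomial intervals and shares Clopper-Pearson intervals (scipy 1.17.1, Python 3.11.15), all at 95%, and 0 UMIs allow 3 counts. Differences were read at 1.5-fold for genes reaching 50 UMIs when the libraries were added. Detection was compared after thinning to 2000 UMIs. The ratio was also run on simulated Poisson counts of class sums. These hold no spread among cells or libraries, so the run does not check the intervals where few cells hold most UMIs.

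Genes named were the members, the marker and gene lists, leading genes of clusters, and for each member the 3 genes with the highest correlation. The members and lists were chosen with earlier results of these data known. Alternatives changed doublet removal, integration, resolution, variable genes, the CPM total, averaging over cells, cluster shares and thinning. Leaving out the top cell of each library or a subcluster was added after seeing the data. Not every promoter sequence is reported here.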

Additional observations from a re-analysis of the deposited data

Results flagged for a closer look

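Krt17 was higher in Gli2EKO in IFE basal-like cells (log2 ratio 0.68) and lower in sebaceous-like cells (−1.27), opposite signs under the same contrast. The share of sebaceous-like cells with a Krt17 UMI overlapped that of immune cells, whose level was 352 CPM in Gli2EKO against 198 CPM in sebaceous-like cells. The top 4 of 45 control and 2 of 25 Gli2EKO sebaceous-like cells held 67.0% and 55.1% of their Krt17 UMIs. Krt79 was higher in Gli2EKO in outer root sheath-like cells (1.18) and lower in IFE basal-like cells (−1.19), both at a detection not told from background. The former was 0.53 without the top cell of each library, 0.52 with automatic Scrublet thresholds and 0.44 at resolution 0.8, and the latter −0.19 with automatic thresholds, −0.07 with no doublet removal and −0.20 at resolution 0.3, all within 1.5-fold. With 1 library per genotype, neither difference between classes was tested.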

How the results depend on the processing

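With 1 library per genotype, no library could be left out. No paired analysis was possible because each genotype has 1 library and no test was made. Of 219 alternative values of 24 ratios within a class, 206 kept the sign and 27 moved by over 1.5-fold. The cause of the changes below was not tested. Over all keratinocytes, the log2 ratio of Krt6a was 0.69 with automatic Scrublet thresholds, 0.74 with no doublet removal, −0.024 as the mean of single-cell CPM, 0.44 without the top cell of each library and 0.27 without the Lor-led subcluster. That of Krt16 was 1.86 as the mean of single-cell CPM, 0.90 with clusters weighted to control shares, 1.70 without the Lor-led and 1.67 without the Atf3-led subcluster. In the same order Krt17 gave 0.30, 0.37, 0.15 and 0.31, with 0.29 with no doublet removal, and Krt79 gave 0.56, 0.52, 0.46 and 0.66. The sign of Krt6a turned in upper follicle-like cells at resolution 0.3 (−1.06), in upper follicle suprabasal-like cells with no integration (−0.36), as the mean of single-cell CPM (−0.24) and without the top cells (−0.32), in IFE basal-like cells as that mean (−0.23) and without the top cells (−0.67), and in outer root sheath-like cells at resolution 0.8 (−0.39) and as that mean (−0.81). That of Krt17 turned in IFE suprabasal-like cells without the Lor-led subcluster (−0.15), and that of Krt79 in upper follicle-like cells at resolution 0.3 (−0.020) and in IFE suprabasal-like cells with no integration (0.10) and without the Atf3-led subcluster (0.06). That of Krt16 turned in IFE basal-like cells with automatic thresholds (−0.03). The share of Krt6a UMIs in upper follicle suprabasal-like cells was 53.5% with automatic thresholds, 55.3% with no doublet removal and 36.5% with no integration, and at resolution 0.8 no such class was named. The share of Krt16 UMIs in IFE suprabasal-like cells was 81.2% and 82.8% under both doublet settings. That of Krt17 in outer root sheath-like cells was 34.8% and 34.0%, with no integration 32.1%, at resolution 0.8 44.0%, and with the members among the variable genes 36.1%. That of Krt79 in IFE suprabasal-like cells was 46.4% and 45.8%, with no integration 59.99%, and at resolution 0.8 63.8%. Thinned to 5000 UMIs, the shares of cells with a UMI were 46.8% for Krt6a, 53.6% for Krt16, 99.8% for Krt17 and 25.2% for Krt79 in those classes.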
